A study of Mus musculus with 57 samples.

Results

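The 10 genes described here encode transcription factors of the trophectoderm, the outer epithelium of the blastocyst, and of the trophoblast stem cells that arise from it: Tead4, Cdx2, Gata2, Gata3, Tfap2a, Tfap2c, Elf5, Ets2, Klf5 and Id2. They were taken by symbol from a table of 56557 genes, and all 10 were present and passed the filter on low values in every comparison. RNA was sequenced from 57 single mouse embryos of 3 lines, named for Taf5, Taf12 and Taf13, which encode subunits of TFIID, the general factor that binds core promoters for RNA polymerase II. Blastocysts were taken at embryonic day 3.5 (E3.5), and some blastocysts of the Taf12 line were instead grown for 72 h in serum-containing medium as outgrowths (OG), in which trophoblast cells attach and spread. The labels call embryos WT, HET or MUT, do not describe the alleles or strain, and do not say whether embryos of a group came from separate litters, so the p-values measure the spread between these embryos.

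The Taf5 line gave 3 WT and 4 MUT blastocysts. The Taf12 line gave 5 WT, 5 HET and 3 MUT blastocysts and 4 WT, 3 HET and 4 MUT outgrowths. The Taf13 line gave 4 WT, 4 HET and 3 MUT blastocysts and 4 WT, 9 HET and 2 MUT embryos at E6.5. Read numbers recovered from the deposited FPKM values (fragments per kilobase of gene and M fragments) came to 7.79 to 12.04 M per blastocyst, 4.55 to 12.53 M per outgrowth and 18.16 to 21.12 M per E6.5 embryo. The outgrowth at 4.55 M was MUT 3, and every other outgrowth had at least 9.51 M. Of the MUT outgrowths, MUT 3 had the lowest Tead4 and Gata3 and the highest Gata2. Taf5 RNA was at 51.9, 13.2 and 42 FPKM in the 3 Taf5 WT blastocysts, and none of the 4 MUT blastocysts had a read of it. Taf12 was not lower in libraries labelled Taf12 MUT, at 62.2 ± 5.6 against 44.6 ± 6.64 in blastocysts and 52.9 ± 0.82 against 23.2 ± 3.7 in outgrowths. Taf13 was at 24.4 ± 10.0 in libraries labelled Taf13 MUT against 37.5 ± 8.64 at E3.5, and at 30.7 ± 5.05 against 32.4 ± 10.3 at E6.5. For those lines the genotype rests on the labels, and "MUT" below means labelled MUT.

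In the mouse blastocyst, TEAD4 acts with the coactivators YAP1 and WWTR1 (TAZ), which enter the nucleus of outer cells when Hippo signalling is low, and it switches on Cdx2 and Gata3. CDX2 represses inner-cell genes such as Pou5f1 and is needed to keep the trophectoderm epithelium. After implantation, ELF5, TFAP2C, ETS2 and CDX2 belong to the circuit of trophoblast stem cells and the extraembryonic ectoderm, while GATA2 and GATA3 act on genes of trophoblast giant cells. Whole embryos hold several lineages, so fewer cells of a lineage and less RNA per cell cannot be told apart.

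TFIID binds the core promoter, so promoters are shown for 4 genes whose RNA differed in a mutant: Tfap2a and Cdx2 in outgrowths, Ets2 in blastocysts and Id2 at E6.5. Each window runs from 250 bases before to 50 bases after a RefSeq start (GRCm38.p6, sense strand 5′ to 3′). The start is the most upstream in the set of windows used. For Tfap2a it lies inside the RefSeq span of the gene (chr13:40713802-40738238), so that window is at an internal start. The windows lie at chr13:40734871-40735170 (minus strand), chr5:147307200-147307499 (minus), chr16:95702157-95702456 (plus) and chr12:25096043-25096342 (minus). Capitals mark GGGCGG (a GC box) or GCCNNNGGC (an AP-2 motif), searched on both strands; where matches touch, the capitals run on.
Tfap2a: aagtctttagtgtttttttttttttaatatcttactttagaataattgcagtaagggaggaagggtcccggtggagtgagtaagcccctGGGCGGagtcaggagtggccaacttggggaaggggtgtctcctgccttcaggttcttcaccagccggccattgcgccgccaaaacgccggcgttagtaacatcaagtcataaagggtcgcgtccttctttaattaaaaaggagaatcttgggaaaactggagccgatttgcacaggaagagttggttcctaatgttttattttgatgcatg
Cdx2: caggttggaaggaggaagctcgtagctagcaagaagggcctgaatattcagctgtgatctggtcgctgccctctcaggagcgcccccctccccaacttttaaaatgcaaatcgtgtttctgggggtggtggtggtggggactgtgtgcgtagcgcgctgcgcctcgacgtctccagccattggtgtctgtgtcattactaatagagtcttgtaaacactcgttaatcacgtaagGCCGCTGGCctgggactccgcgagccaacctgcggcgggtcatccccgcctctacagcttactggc
Ets2: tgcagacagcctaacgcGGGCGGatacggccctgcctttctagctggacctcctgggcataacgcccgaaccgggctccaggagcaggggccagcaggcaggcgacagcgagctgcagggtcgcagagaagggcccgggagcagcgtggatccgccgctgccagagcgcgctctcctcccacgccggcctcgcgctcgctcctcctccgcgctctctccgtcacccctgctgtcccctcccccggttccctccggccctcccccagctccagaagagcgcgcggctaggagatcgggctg
Id2: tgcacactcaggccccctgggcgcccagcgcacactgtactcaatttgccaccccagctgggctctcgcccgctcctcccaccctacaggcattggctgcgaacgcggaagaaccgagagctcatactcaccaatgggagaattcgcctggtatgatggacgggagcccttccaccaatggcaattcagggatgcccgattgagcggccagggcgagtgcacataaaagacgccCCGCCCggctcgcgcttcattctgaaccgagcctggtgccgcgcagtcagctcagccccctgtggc

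RefSeq windows were matched for 7 of the 10 genes, namely Cdx2, Gata2, Gata3, Tfap2a, Elf5, Ets2 and Id2. Those of Tfap2a and Gata3 lie inside the RefSeq spans of the genes, so their matches and base content are of internal starts. None of the 7 windows held TATAAA, which was present in 13.6% of the 32851 windows of the table. GGGCGG was present in 5 of 7 (Gata2, Gata3, Tfap2a, Ets2 and Id2) against 35.7% of all windows. GCCNNNGGC was present in Cdx2 and Gata3 and in 16.6% of all windows. The ETS motif CGGAAG was found in Id2 and in 16.9% of all windows. Elf5 held the TEAD motif GGAATG, present in 14.7% of all windows. No window of the 7 held the GATA motif AGATAA, which 11.2% of all windows did. Windows of the 7 genes ranged from 46.3% (Tfap2a) to 71.7% (Ets2) G and C, with a median of 52.7% over the table. These are letter matches in short windows and say nothing of binding.

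WT levels of the 10 genes differed widely between stages. Each line and stage may have been normalized separately, so these ratios of group means are a description without a test, and FPKM is compared only within a gene. Cdx2 was at 98.2 to 149.6 FPKM in the 5 Taf12 WT blastocysts and at 0.114, 4.39, 2.26 and 1.43 in the 4 WT outgrowths, a mean 61.7-fold lower. Klf5, a Krüppel-like factor active in the trophectoderm and the inner cell mass, was 6.89-fold lower in outgrowths, and Id2, an inhibitor of basic helix-loop-helix factors that is enriched in the trophectoderm, was 4.71-fold lower. Levels went the other way for Elf5 (19.4-fold higher), Ets2 (13.9-fold), Tfap2c (8.26-fold) and Gata2 (6.1-fold). Gata3, Tfap2a and Tead4 lay within 1.41-fold of their blastocyst mean. In the Taf13 line, WT embryos at E6.5 had 65.1-fold less Tfap2a than blastocysts, 48.4-fold less Gata3, 17.3-fold less Klf5 and 10.7-fold less Cdx2, while Elf5 was 4.56-fold and Ets2 2.57-fold higher and Tfap2c was 1.13-fold higher. All 10 RNAs thus had reads in these WT groups, but Tfap2a was at 0.0655 to 0.812 FPKM in WT at E6.5, on 2 to 21 reads per library.

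**Figure D1:**
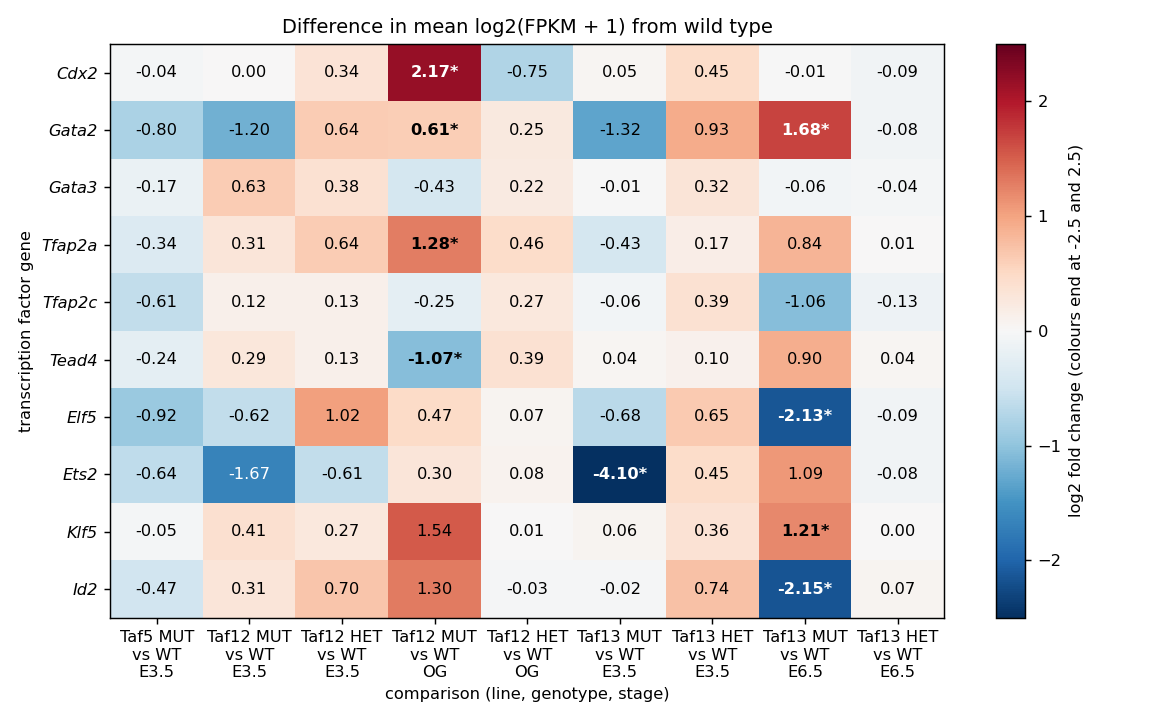
Difference from WT in mean log2(FPKM + 1) for each gene (vertical axis) in each of the 9 comparisons (horizontal axis); asterisks mark an adjusted p under 0.05. The marked cells are 4 in Taf12 MUT outgrowths, 1 in Taf13 MUT blastocysts and 4 in Taf13 MUT embryos at E6.5, with none in the HET comparisons.

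Taf12 MUT outgrowths were compared with WT outgrowths to ask how these factors differed after 72 h of culture. Tfap2a, Cdx2 and Gata2 rose and Tead4 fell, so 4 of the 10 genes passed the test, against 37.9% of the 13068 genes tested; this is close to the share of all genes. By direction, 3 of 10 were higher against 18% of all genes, and 1 of 10 was lower against 19.9%. The median log2 fold change of the 10 was 0.54, against −0.05 over all genes. Folds are ratios of group means, and log2 fold changes are differences in mean log2(FPKM + 1) from limma with a Benjamini-Hochberg adjusted p over all genes tested.

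Tead4, the TEA-domain factor at the head of this circuit, was at 30.4, 37.7, 41.3 and 30.4 FPKM in WT outgrowths and at 21.8, 20.1, 10.9 and 13.4 in MUT. HET outgrowths were at 48.4, 36.6 and 53.7, so every MUT value lay below every WT and HET value. The mean was 2.11-fold lower in MUT (16.5 ± 5.24 against 35 ± 5.43; log2 fold change −1.07, SE 0.23, adjusted p = 0.00456). It passed the test in all 8 fits that left out 1 library, with adjusted p from 0.00316 to 0.0152.

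Cdx2, the caudal-type homeobox factor, was at 2.61, 43.3, 8.68 and 11.8 FPKM in MUT outgrowths against 0.114, 4.39, 2.26 and 1.43 in WT and 1.24, 0.583 and 0.0825 in HET. Of the 4 MUT outgrowths, 3 lay above every control and MUT 1 lay within the WT range. The mean was 8.09-fold higher (16.6 ± 18.2 against 2.05 ± 1.79; log2 fold change 2.17, SE 0.71, adjusted p = 0.0329). Of the 8 fits that left out 1 library, 2 kept the call; without MUT 2, the library at 43.3, the log2 fold change was 1.54 (adjusted p = 0.0682). Every MUT outgrowth was below the lowest Taf12 WT blastocyst.

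The AP-2 factors did not move alike. Tfap2a was at 24.5, 14.4, 24.1 and 18.9 FPKM in WT, 29.1, 32.9 and 22.5 in HET and 35.8, 58.3, 48.5 and 61.4 in MUT. All 4 MUT values were above all 7 control values, and the mean was 2.49-fold that of WT (51 ± 11.5 against 20.5 ± 4.78; log2 fold change 1.28, SE 0.23, adjusted p = 0.00154). Tfap2c, the AP-2 factor of trophoblast stem cells, was at 2155, 1568, 1982 and 1805 in MUT against 2297, 1984, 2080.3 and 2562 in WT, groups that overlapped (adjusted p = 0.118). HET outgrowths had 2643, 2869 and 2525 FPKM of Tfap2c.

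Among the GATA factors, Gata2 was at 205, 128, 295 and 221 FPKM in MUT and at 141, 121, 128 and 144 in WT, with MUT 2 inside the WT range. HET outgrowths were at 146, 163 and 167, all above every WT value and above MUT 2. In MUT, Gata2 rose 1.59-fold over WT (212 ± 68.7 against 133 ± 10.9; log2 fold change 0.61, SE 0.21, adjusted p = 0.0433), and 1 of the 8 fits that left out 1 library kept the call. Gata3 was at 242, 669, 168 and 560.3 in MUT against 399.7 to 636 in WT, with 2 MUT outgrowths below and 1 above every WT value (adjusted p = 0.414).

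Klf5 and Id2 did not pass the test against WT alone. Klf5 was at 202, 1288, 446 and 1118 FPKM in MUT and at 82.3 to 306 in WT (log2 fold change 1.54, adjusted p = 0.0677). Id2 was at 545, 768, 826 and 1352 in MUT and at 237, 703, 526 and 142 in WT (log2 fold change 1.30, adjusted p = 0.0611). With WT and HET together as the control, both passed (adjusted p = 0.0293 and 0.0243), as did Tfap2c. The ETS factors Elf5 and Ets2 overlapped WT, at 22.8 to 55.1 against 10.5 to 46.8 and at 209 to 553 against 193 to 356.

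**Figure D2:**
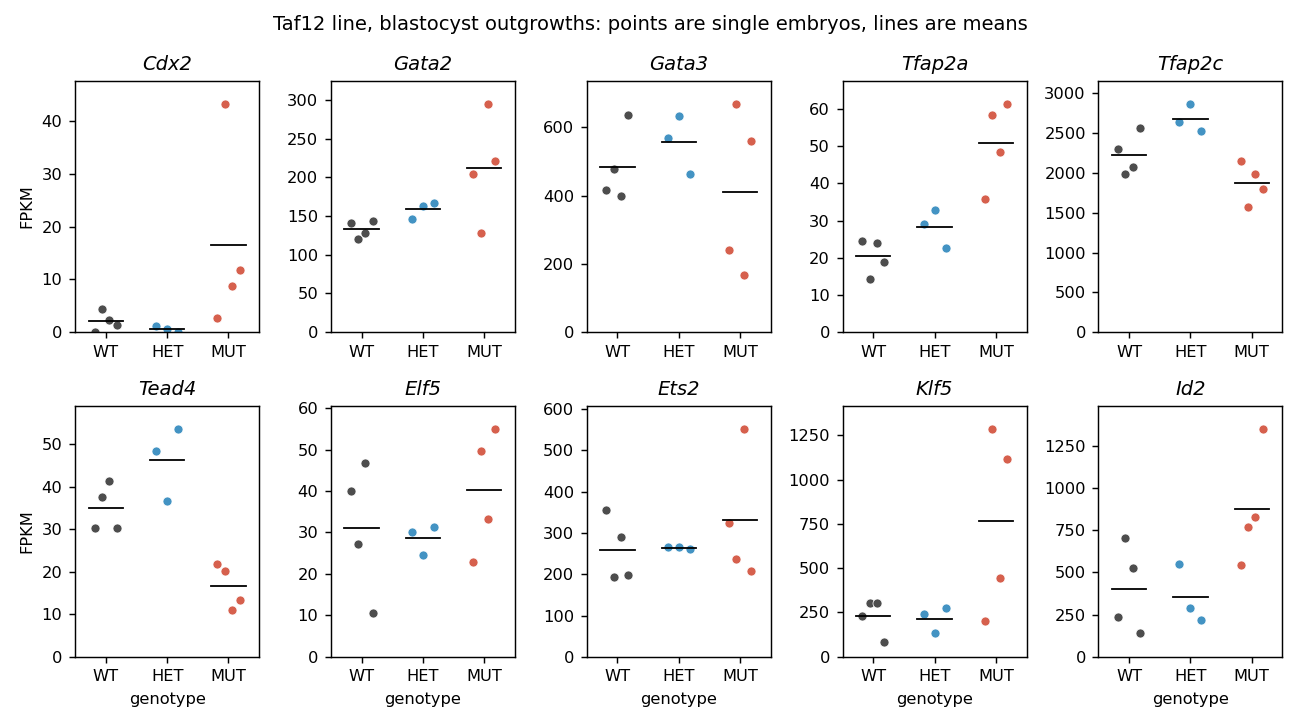
FPKM of the 10 genes (vertical axes, each starting at 0) in single Taf12-line outgrowths by labelled genotype (horizontal axes); black lines are group means. Tead4 is lower in all 4 MUT outgrowths than in every control and Tfap2a is higher, whereas the Cdx2 mean in MUT leans on the library at 43.3 FPKM.

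The counts for neighbouring gene lists in Taf12 MUT outgrowths stand against 18% of all genes higher and 19.9% lower. Of 18 tested genes of the Hippo and Notch inputs, 7 rose and 3 fell (median log2 fold change 0.3 against −0.05 over all genes). Amotl2, a junction protein that holds YAP1 in the cytoplasm, rose 4.36-fold (196 ± 68.0 against 45 ± 22.3; adjusted p = 0.00102), and Vgll4, which competes with YAP1 for TEAD proteins, rose 5.06-fold (adjusted p = 0.000481). Mob1b, a LATS kinase activator, rose 2.82-fold (adjusted p = 0.000253).

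Among 16 tested paralogs of the 10 factors, 5 rose and 2 fell, close to the 37.9% of all genes called, with a median of −0.01. Tead2, which the Hippo list also holds, rose 5.45-fold (34.9 ± 18.7 against 6.4 ± 2.09; adjusted p = 0.00154) while Tead1 fell 2.99-fold (15.1 ± 5.88 against 45.1 ± 13.5; adjusted p = 0.00306), so the TEAD genes moved in both directions. Elf3, an epithelial ETS factor, rose 7.39-fold (551 ± 106 against 74.5 ± 21.5; adjusted p = 7.18e-05), and Klf6 rose 3.1-fold (adjusted p = 0.000242).

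Of 17 structural genes of the trophectoderm, 9 rose and 1 fell, against 18% and 19.9% of all genes (median log2 fold change 0.69 against −0.05). The keratins Krt8 and Krt18 rose 5.02-fold and 4.19-fold (adjusted p = 0.000206 and 0.00011), and Cgn, which encodes the tight junction protein cingulin, rose 2.95-fold (14 ± 3.01 against 4.75 ± 1.38; adjusted p = 0.00112).

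For trophoblast stem cells and extraembryonic ectoderm, 6 of 11 tested genes fell and 1 rose, against 19.9% and 18% of all genes (median −0.79 against −0.05). Rhox5, an X-linked homeobox gene of extraembryonic tissues, fell 5.86-fold (12.6 ± 3.42 against 73.7 ± 27.8; adjusted p = 0.000279), Bmp8b, a BMP ligand, fell 3.68-fold (adjusted p = 0.00618), and Esrrb, an orphan nuclear receptor that is also in the epiblast list, had no reads in MUT and 41.4 ± 47.6 FPKM in WT (adjusted p = 0.00168). The riser was Fgfr2, the FGF4 receptor of trophoblast stem cells, 3.81-fold higher (162 ± 24.5 against 42.5 ± 21.4; adjusted p = 0.00487). Of 13 tested differentiation genes, 4 rose and 1 fell, which is near the 37.9% of all genes called. Phlda2 rose 10.8-fold and Cdkn1c, a cyclin-dependent kinase inhibitor, 6.27-fold (adjusted p = 2.64e-05 and 0.00131). Hand1 rose 1.5-fold (9126 ± 1613 against 6072 ± 1452; adjusted p = 0.0172), while Prl3d1, a giant-cell hormone gene, fell 2.3-fold (adjusted p = 0.0133).

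Markers of other tissues differed between MUT and WT outgrowths. Of 14 tested primitive endoderm markers, 9 fell and none rose, and their summed level was 210.0 to 1247 reads per M of recovered reads in MUT against 885 to 2041 in WT. HET outgrowths were at 431, 423 and 1137, overlapping MUT. Of 8 tested epiblast markers, 3 fell and 1 rose, with summed levels of 355 to 510.0 against 457 to 659 in WT and 458 to 533 in HET, and 7 of the 14 listed had no reads in MUT. Of 8 tested mitochondrially encoded genes, 7 rose. Of 3 tested decidua markers, 1 rose, Cryab (448 ± 66.4 FPKM in MUT against 61.3 ± 26.1 in WT), and 1 fell, Des (0.125 ± 0.25 against 6.8 ± 8.69). In MUT, 8 of the 12 listed had no reads. Their summed levels were 176 to 242 reads per M of recovered reads against 37.9 to 117 in WT. These outgrowths were grown from blastocysts in culture. The part of these differences in the results above was not tested.

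Heterozygous Taf12 outgrowths did not differ from WT in any of the 10 genes by limma (0.0306% of genes tested passed). No gene of the 10 reached an unadjusted p under 0.05, and the voom fit on recovered reads also called 0. The effect of MUT was then compared between outgrowths and blastocysts of the Taf12 line as a contrast of the effects, which 11% of genes passed and none of the 10 did. Tead4 was nearest (log2 difference −1.37, SE 0.45, adjusted p = 0.053), followed by Cdx2 (2.18, SE 0.75, adjusted p = 0.0662), and 2 of the 10 had an unadjusted p under 0.05. Of the 16 fits that left out 1 library, 3 called Tead4 and 2 called Cdx2. The matching contrast for HET called 0 of the 10, with 0 at an unadjusted p under 0.05, 0 by voom and 0.00664% of all genes.

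In Taf13 MUT blastocysts, the comparison with WT asked how these factors differed before implantation, and 1 of the 10 genes passed, against 0.134% of the 11975 tested. Ets2, an ETS factor needed in mouse for extraembryonic development, had no reads in any of the 3 MUT blastocysts. It was at 8.94, 26.2, 22.9 and 12.4 FPKM in WT and at 44.3, 40.3, 7.62 and 17.5 in HET, so WT and HET overlapped and every one of these controls was above MUT. At a floor of 3 reads per library (0.398 FPKM), WT was at least 44.2-fold higher. The fitted log2 fold change was −4.10 (SE 0.59, adjusted p = 0.0325), which depends on the pseudocount. None of the 7 fits that left out 1 library called it (adjusted p 0.0519 to 0.1), and voom on recovered reads gave adjusted p = 0.197.

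Ets2 was also without reads in 5 of the 20 blastocysts of the other lines, namely 1 of 3 Taf5 WT, 2 of 4 Taf5 MUT, 1 of 5 Taf12 HET and 1 of 3 Taf12 MUT. No outgrowth and no E6.5 embryo lacked reads of Ets2. The effect of Taf13 MUT on Ets2 was not called different from that of Taf5 MUT (log2 difference −3.46, adjusted p = 0.78) or of Taf12 MUT (−2.43, adjusted p = 0.631).

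The remaining 9 genes did not pass in Taf13 MUT blastocysts, with adjusted p of 0.636 to 0.993. Cdx2 was at 147, 140.5 and 139 FPKM against 120.3, 152, 124 and 155 in WT. Id2 was at 3224, 2835 and 3209 against 2695, 5808, 2179 and 2767. Gata2 was at 10.8, 2.35 and 18.5 against 6.9, 85.9, 11.1 and 31.8. Beside Ets2, Sox17, a primitive endoderm factor, had no reads in MUT and 9.23 ± 3.91 FPKM in WT (adjusted p = 0.0157); it was the only called gene among the other lists.

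**Figure D3:**
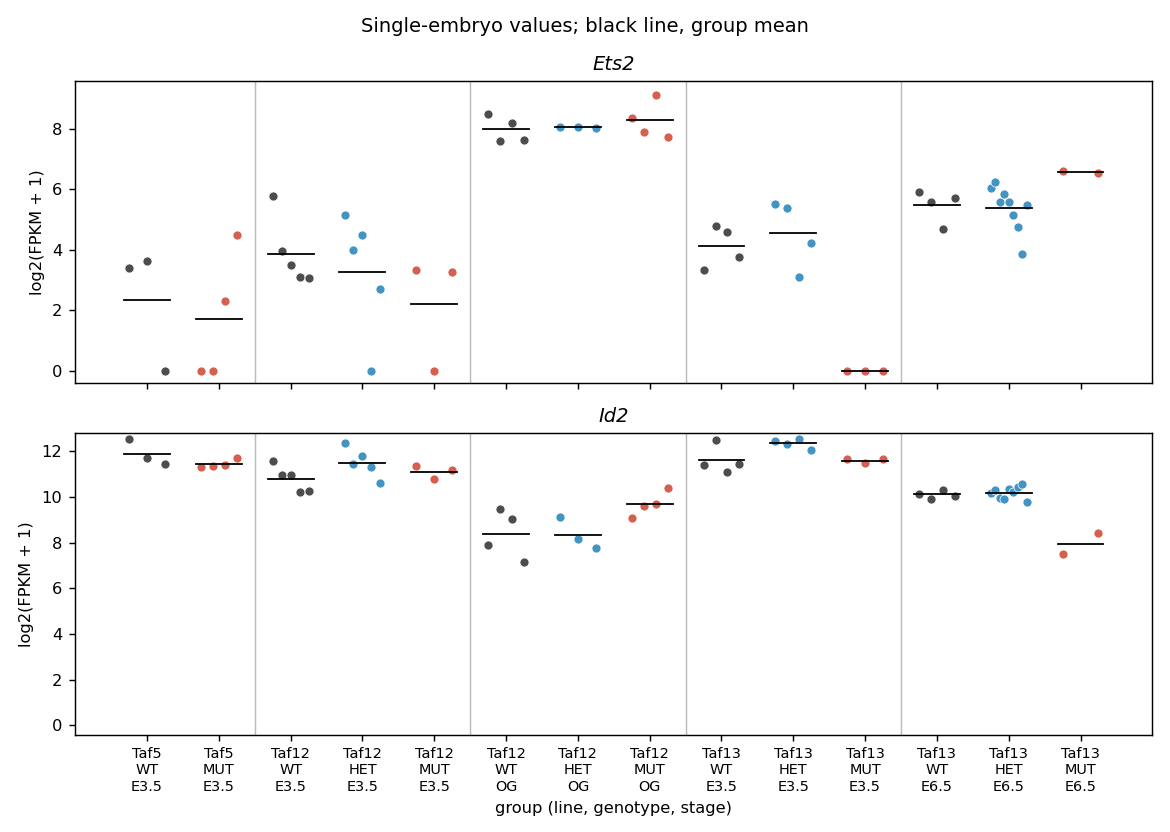
Ets2 (top) and Id2 (bottom) as log2(FPKM + 1), vertical axes, in each single embryo of the 14 groups, horizontal axis; grey is WT, blue HET, red MUT, and black lines are group means. Ets2 is at 0 in all 3 Taf13 MUT blastocysts and in 5 blastocysts of the other lines, and Id2 is below every control in both Taf13 MUT embryos at E6.5.

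In blastocysts of the other lines, no gene of the 10 passed in Taf5 MUT (0.111% of genes did) or Taf12 MUT (1.44%), and none reached an unadjusted p under 0.05 in either or was called by voom. Cdx2 was at 156, 141, 213 and 169 FPKM in Taf5 MUT against 174, 189.6 and 156 in WT, and at 127, 132 and 114 in Taf12 MUT against 98.2 to 149.6. All 10 log2 fold changes were below 0 in Taf5 MUT, from −0.92 (Elf5) to −0.04 (Cdx2), with a median of −0.40 against −0.04 over all genes. Most pairs of the 10 correlated above 0 among blastocysts, as given below, so these signs are not independent. The share of all genes below 0 was not counted. In Taf12 MUT, Gata3 was at 1404, 964 and 595 against 443 to 891 (adjusted p = 0.336), and Ets2 was at 8.98, 0 and 8.62 against 7.35 to 53.7, without a call. The contrasts of MUT effects between lines at E3.5 called none of the 10 for Taf12 minus Taf5, Taf13 minus Taf5 or Taf13 minus Taf12, where 0.0147%, 0.00768% and 0.0359% of all genes passed and 0, 1 and 0 of the 10 had an unadjusted p under 0.05; voom called none.

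Among neighbouring lists in Taf12 MUT blastocysts, Atp1b1, a sodium pump subunit of the trophectoderm, fell 1.76-fold (42.5 ± 5.63 against 74.6 ± 11.3; adjusted p = 0.0493). The epiblast genes Fgf4 and Tdgf1 fell too: Fgf4, the ligand that sustains trophoblast stem cells, was at 1.68 ± 2.91 against 77.5 ± 90.1 (adjusted p = 0.0111), and Tdgf1, a Nodal coreceptor, at 179 ± 58.2 against 1381 ± 992 (adjusted p = 0.0256). 

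Heterozygous blastocysts had no call among the 10 genes by limma or voom in the Taf12 or the Taf13 line (0.0% of genes passed in each). In the Taf12 line 1 of the 10 and in the Taf13 line 3 of the 10 had an unadjusted p under 0.05, as had 447 of 12751 and 519 of 11975 genes. Cdx2 was at 191, 167, 213 and 179 FPKM in Taf13 HET, all above the 4 WT values of 120.3 to 155 (adjusted p = 0.999). Klf5 was at 1971 to 2153 against 1191 to 1812 in WT, also without overlap, and Id2 at 4319.7 to 5946 against 2179 to 5808. All 10 log2 fold changes were above 0 in Taf13 HET, from 0.10 to 0.93, with a median of 0.42 against 0.0 over all genes. As in Taf5 MUT, these signs are not independent, and the share of all genes above 0 was not counted.

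The 10 factors varied among blastocysts of the same group. In the Taf12 line, WT 1 had 76.0 FPKM of Gata2 against 6.01 to 13.3 in the other 4 WT, 53.7 of Ets2 against 7.35 to 14.3, and 5.82 of Elf5 against 0.152 to 1.49. The HET blastocysts split likewise, with Gata2 at 68.0, 51.3 and 58.1 in HET 1, 2 and 3 and at 4.99 and 2.57 in HET 4 and 5. In HET 1, 2 and 3 Elf5 was at 10.4, 4.37 and 7.81, and in HET 4 and 5 it was at 0.3 and 0.544.

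After subtraction of the group mean of log2(FPKM + 1), 41 of the 45 gene pairs had a Pearson r above 0 over the 31 blastocysts, with a median of 0.5. The highest values were 0.86 for Gata3 with Tfap2a, 0.76 for Gata2 with Id2 and 0.75 for Gata2 with Gata3, and the 4 pairs below 0 all contained Tead4, with the lowest at −0.41 for Tead4 with Elf5. These points share a library and its normalization, and pairs of other genes were not correlated in this way. The r values therefore cannot show whether these factors varied together more than other genes did. For single genes, r with log2 depth lay between −0.21 (Gata3) and 0.35 (Tfap2c). With the number of genes above 0, r lay between −0.39 (Tfap2a) and 0.08 (Tfap2c), with Gata3 at −0.33. The SD of the deviations was 1.37 for Ets2, 1.2 for Gata2 and 0.87 for Elf5, against 0.2 for Cdx2 and 0.28 for Klf5.

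**Figure D4:**
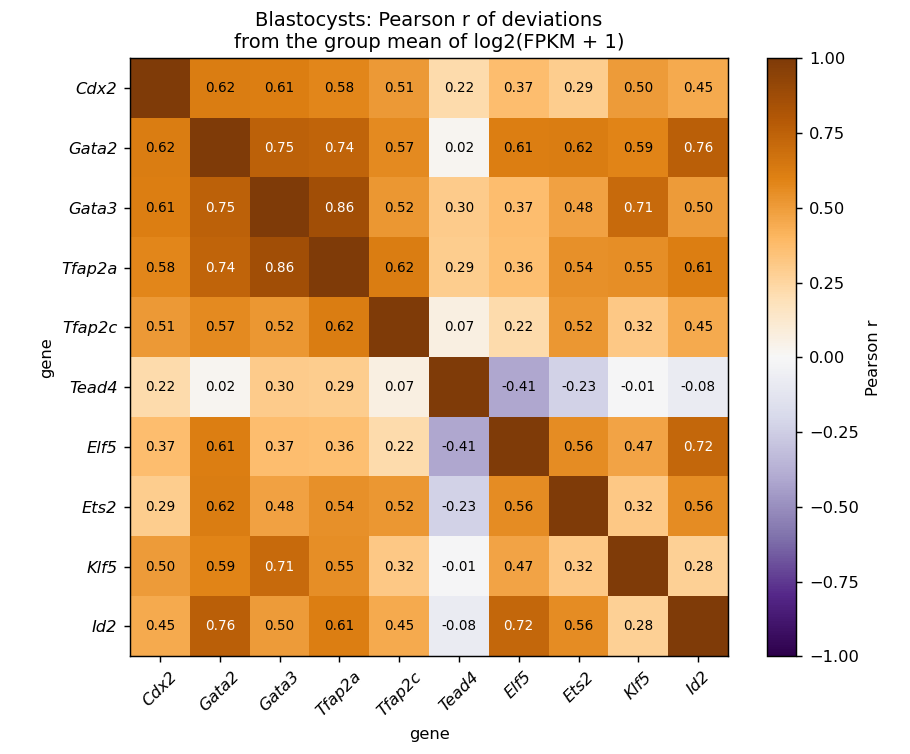
Pearson r between genes (both axes) of the deviations from the group mean of log2(FPKM + 1) over 31 blastocysts. Values run from −0.41 to 0.86, and Tead4 stands apart from the block of pairs above 0. Pairs of other genes were not correlated for comparison.

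Taf13 MUT embryos at E6.5 were compared with WT to ask how the factors differed after implantation; only 2 MUT libraries exist in that group. Id2 and Elf5 fell and Gata2 and Klf5 rose, so 4 of the 10 genes passed against 13% of the 14417 tested. By direction, 2 were higher, against 6.64% of all genes, and 2 lower, against 6.4%. The 2 MUT embryos differed from each other in several of the 10.

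Id2 was at 179 and 344 FPKM in MUT and at 1135, 976, 1283 and 1051 in WT, and in the 9 HET it ran from 874 through a median of 1188 to 1498. Both MUT values lay below all 13 controls. The mean was 4.25-fold lower (261 ± 117 against 1111 ± 131; log2 fold change −2.15, SE 0.25, adjusted p = 0.000106), and all 6 fits that left out 1 library kept the call.

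Elf5, an ETS factor that marks the extraembryonic ectoderm, was at 0.523 and 11.9 FPKM in MUT against 18.2, 16.6, 20.2 and 18.8 in WT and 11.3 to 23.4 in HET (median 16.2). MUT 1 was far below every control and MUT 2 lay inside the HET range. The mean was 2.97-fold lower (6.22 ± 8.05 against 18.4 ± 1.48; log2 fold change −2.13, SE 0.55, adjusted p = 0.0188), and without MUT 1 the log2 fold change was −0.59 (adjusted p = 0.396).

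Gata2 was at 8.8 and 18.8 FPKM in MUT against 5.12, 3.45, 2.41 and 2.81 in WT and 1.55 to 9.66 in HET (median 3.1), so MUT 1 lay above WT but inside the HET range. It rose 4.0-fold over WT (log2 fold change 1.68, SE 0.49, adjusted p = 0.0339), and 1 of the 6 fits that left out 1 library, the one without WT 1, kept the call. Without MUT 1 or MUT 2 the adjusted p was 0.0767 and 0.23, and without WT 2, WT 3 or WT 4 it was 0.0654, 0.0608 and 0.0655. Klf5 was at 247 and 189 against 102, 65.1, 106 and 104 in WT and 63.8 to 175 in HET, so both MUT lay above all controls. It rose 2.31-fold (218 ± 40.9 against 94.2 ± 19.5; log2 fold change 1.21, SE 0.35, adjusted p = 0.034), and 3 of the 6 fits kept the call, which was lost without MUT 1, MUT 2 or WT 2 (adjusted p = 0.289, 0.0617 and 0.0874).

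Tfap2c was at 24 FPKM in MUT 1 and 577 in MUT 2, below and above all 13 controls (73.2 to 569.6), so the mean of 301 ± 391 describes neither embryo (adjusted p = 0.461). Tfap2a was at 0.319 in MUT 1 and 3.52 in MUT 2, against at most 1.06 in the controls (adjusted p = 0.197). Fits without MUT 2 called Tfap2c lower (leave-one-out adjusted p = 0.00862), and fits without MUT 1 called Tfap2a higher (adjusted p = 0.0371), each taking the lone MUT library to vary like the other groups. Tead4 was at 14.6 and 7.05 against 4.0 to 5.94 in WT (adjusted p = 0.0915), and passed with WT and HET together as the control (log2 fold change 0.87, adjusted p = 0.0382) or without MUT 2 (adjusted p = 0.0374). Ets2 was at 95.3 and 91.0 against 24.8 to 58.5 in WT and 13.6 to 74.3 in HET, above every control without passing (adjusted p = 0.18). Cdx2 was at 15.1 and 10.0 against 9.27 to 16.9, and Gata3 at 9.53 and 21.4 against 9.58 to 20.7, both within or beside the WT range.

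**Figure D5:**
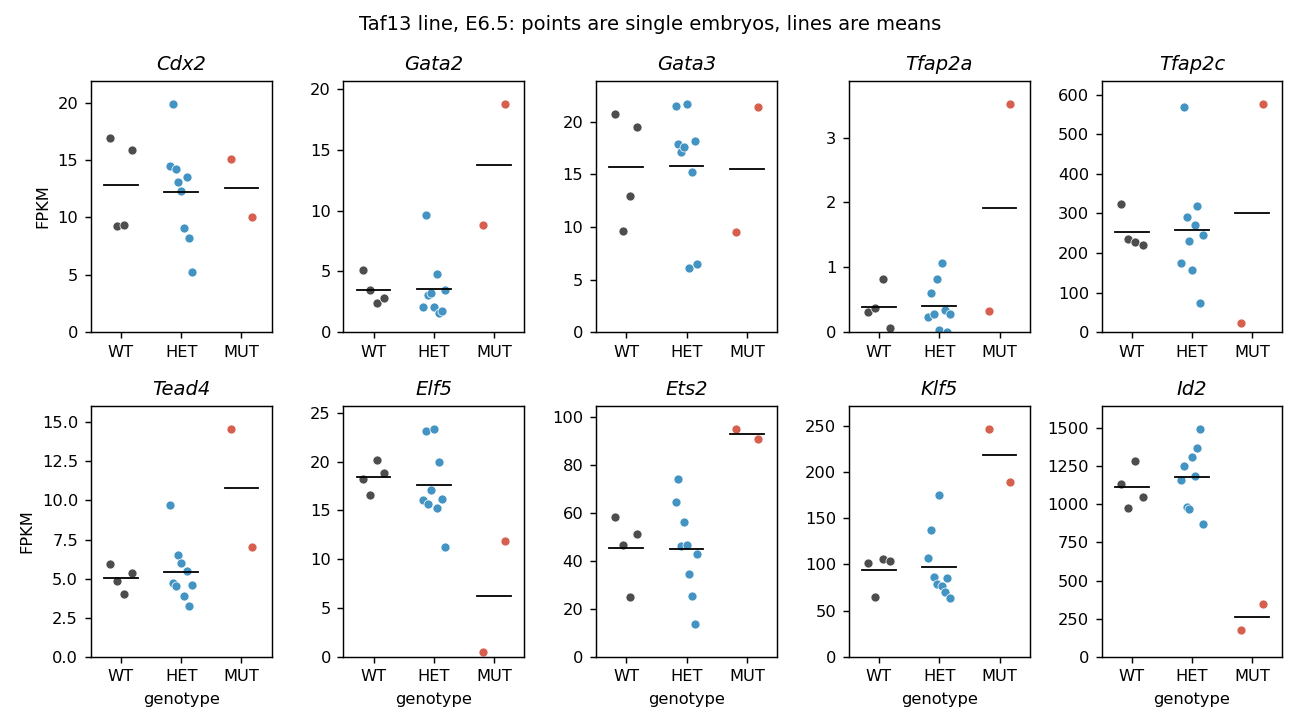
FPKM of the 10 genes (vertical axes, each starting at 0) in single Taf13-line embryos at E6.5 by labelled genotype (horizontal axes); black lines are group means. Id2 is lower in both MUT embryos than in every control, while Elf5 and Tfap2c differ between the 2 MUT embryos.

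The counts for neighbouring gene lists at E6.5 stand against 6.64% of all genes higher and 6.4% lower. Of 13 tested trophoblast stem and extraembryonic ectoderm genes, 5 fell and none rose (median −1.62 against 0.03 over all genes). Eomes, the T-box factor of trophoblast stem cells, fell 7.83-fold (9.91 ± 0.24 against 77.6 ± 40.5; adjusted p = 0.00253), Bmp4, secreted by the extraembryonic ectoderm, fell 5.39-fold (adjusted p = 0.000731), and Nr0b1, which the epiblast also expresses, fell as well (adjusted p = 4.69e-05). Of 18 tested Hippo and Notch genes, 4 rose: Tead3 5.49-fold, Vgll4 2.29-fold, Wwtr1 2.02-fold and Mob1a 1.8-fold. Of 16 tested paralogs, 4 rose and 1 fell; the lower one was Id3, an inhibitor like Id2, which fell 3.13-fold (21.9 ± 9.52 against 68.6 ± 11.4; adjusted p = 0.00292). Of 17 trophectoderm structural genes, 1 rose, Atp1b1, and of 13 tested differentiation genes, Cdkn1c rose and Plet1 fell, against 13% of all genes called.

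Markers of other tissues also differed between the MUT and WT groups at E6.5, with overlap in the decidual sums. Of 11 tested decidua markers, 7 rose (median 3.2), and the summed level of the 12 listed was 1249 and 2263 reads per M of recovered reads in MUT against 62.7, 149, 1639.5 and 60.4 in WT and 14.6 to 899 in HET. WT 3, whose decidual level lay within the MUT range, had 1283 FPKM of Id2, 20.2 of Elf5, 2.41 of Gata2 and 106 of Klf5, which were the highest, highest, lowest and highest of the 4 WT. HET 8, the HET with the most decidual reads, had 1498 FPKM of Id2, 16.2 of Elf5, 1.76 of Gata2 and 85.2 of Klf5. Of 12 tested epiblast markers 9 fell and 1 rose, summing to 98.5 and 251 reads per M of recovered reads in MUT against 1000.5 to 1655 in WT, with Pou5f1, Otx2 and Fgf4 at 0 in both MUT embryos. Of 15 primitive endoderm markers 9 rose and none fell, summing to 3567 and 6064 against 1793 to 3447. Of 7 tested blood markers 1 rose, Alas2, and the sums were 196 and 405 against 3.3 to 146. Mitochondrial reads were 1.12% in MUT 1 and 0.387% in MUT 2 against 0.11 to 0.537% in WT. The part of these differences in the results was not tested.

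Heterozygous Taf13 embryos at E6.5 had no call among the 10 genes by limma or voom, with 0 of the 10 at an unadjusted p under 0.05 and 0.0% of all genes called. Their log2 fold changes ran from −0.13 to 0.07. Single HET embryos still spread widely, with Tfap2c from 73.2 to 569.6 FPKM.

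The effect of Taf13 MUT differed between E6.5 and E3.5 for 2 of the 10 genes, against 4.45% of 16239 genes tested. For Ets2 the log2 difference of effects was 5.19 (SE 0.79, adjusted p = 0.00036), since it was without reads in MUT blastocysts and above every control at E6.5. For Id2 it was −2.14 (SE 0.38, adjusted p = 0.00207), with no difference called in blastocysts and a fall at E6.5. The size for Ets2 depends on the pseudocount, and the 3 MUT blastocysts at 0 add no spread to its SE. None of the 7 leave-one-out fits called Ets2 at E3.5, and limma did not call it at E6.5 (adjusted p = 0.18). Ets2 kept its call in all 13 fits that left out 1 library, and Id2 in 12, with adjusted p = 0.0504 without MUT 1 of E6.5. The matching HET contrast called none of the 10 by limma or voom (0.0493% of genes), with 1 of the 10, Id2, at an unadjusted p under 0.05.

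The authors' deposited table compares MUT with WT in the Taf5 line and with WT and HET together in the other lines. In the authors' deposited table, 7 of the 10 genes had an adjusted p under 0.05 in Taf12 outgrowths (39.9% of genes with a value did), 5 in Taf13 embryos at E6.5 (23.5%), 1 in Taf13 blastocysts (4.35%) and none in Taf5 (1.9%) or Taf12 blastocysts (9.71%). The authors' deposited table lists log2 fold changes of 3.52 for Cdx2, 1.77 for Klf5, 1.2 for Id2 and −1.26 for Tead4 in outgrowths. In Taf13 blastocysts the authors' deposited table gives −9.84 for Ets2, and at E6.5 it gives −2.15 for Id2, −1.52 for Elf5 and 1.03 for Tead4.

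Each of the 10 genes was matched to the named genes most like it over the 57 libraries, by Pearson r of log2(FPKM + 1) less the WT mean of the same line and stage, among 9601 genes tested in all 5 line and stage sets. The nearest genes were Mbnl3 for Tfap2a (r = 0.866), Rab11fip4 for Cdx2 (0.846) and Acadl for Klf5 (0.825). Gata2 was nearest to Entpd1 (0.803), Elf5 to Tmem54 (0.78), Id2 to Slc39a2 (0.752) and Tead4 to Pink1 (0.681). Ets2 was nearest to Gata2 itself (0.664), and Gata3 had the lowest leading value, with Egln1 (0.63). In 2 cases another of the 10 was among the 3 nearest: Gata2 for Ets2, and Id2 for Elf5 (0.733). Later places were held by Pdzk1 and Coil for Cdx2, Lgals1 and Niban1 for Gata2, Clic4 and Tmbim6 for Gata3, Niban1 for Tfap2a, Gjb5 and Slc38a4 for Tfap2c, Gtse1 and Ndc80 for Tead4, Gng2 for Elf5, Hsd17b4 and Kdm5a for Ets2, Scpep1 and Cnn3 for Klf5, and Gsta4 and Gng2 for Id2. The points share libraries, so these are descriptions.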

How the data were processed

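The submitters' processing notes name GRCm39 as the build and list DESeq2 1.36.0, R 4.2.1, STAR 2.7.6a, FastQC 0.11.9 and Trimmomatic 0.39, without an order. How reads were counted, and whether by strand, is not given there. The authors deposited FPKM per gene and embryo, together with a table that holds log2 fold changes, their standard errors and adjusted p-values from the authors' own comparisons. The FPKM imply gene lengths that are unlikely, so levels were compared only within a gene. Reads were recovered by dividing each FPKM by that of 1 read in its library; 37342 of 37343 genes above 0 gave a unit (whole within 0.05 reads).

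Values of log2(FPKM + 1) were tested with limma 3.58.1 (R 4.3.3) for genes at FPKM 1 or more in at least the number of libraries of the smallest group. Each comparison with WT was fitted on its own line and stage alone. Each contrast of effects was fitted on the libraries of both sets it compares, with a shared filter and variance estimate. These fits used a variance trend and robust moderation. Tests were two-sided, adjusted by Benjamini-Hochberg over all genes tested, and called at 0.05. Folds against a group without reads use a floor of 3 reads per library, which covers counting error only. Scripts were tested on simulated data.

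The 10 genes and the gene lists were chosen with earlier results of these data known. Named are all 10 genes in each comparison, the targeted genes, up to 4 called genes per list and comparison with the smallest p, and the 3 genes most like each of the 10; a few genes that this rule picks are not reported here. Alternatives were a pseudocount of 0.1, no filter, voom on recovered reads, a replicate block, WT and HET together as control, and leaving out each library of groups of 2 to 5.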

Additional observations from a re-analysis of the deposited data

Results flagged for a closer look

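Among 90 sets of 1 gene in 1 group of 4 to 10 embryos, 11 held a library far from the others by Dixon's criterion. Its cut-offs flag about 1 in 20 sets of normally distributed values. FPKM were used here without a log, and genes of 1 library are not independent, so the number of flags cannot be set against that rate. In Taf12 blastocysts, WT 1 stood apart from the other 4 WT in 4 genes: Gata2 at 76.0 FPKM against 6.01 to 13.3, Ets2 at 53.7 against 7.35 to 14.3, Elf5 at 5.82 against 0.152 to 1.49, and Tfap2c at 373 against 228 to 255. In Taf13 WT blastocysts, Id2 was at 5808 in WT 2 against 2179 to 2767, and Klf5 at 1191 in WT 1 against 1739.8 to 1812. At E6.5, Tfap2c was at 325 in WT 1 against 221 to 236, and Klf5 at 65.1 in WT 2 against 102 to 106. Among the 9 Taf13 HET at E6.5, HET 2 had the highest Gata2 (9.66 against 1.55 to 4.78) and Tfap2c (569.6 against 73.2 to 319.8), and HET 1 the highest Tead4 (9.72 against 3.26 to 6.48).

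The Taf13 MUT effect differed between E6.5 and E3.5 for Ets2 (log2 difference 5.19, adjusted p = 0.00036) and Id2 (−2.14, adjusted p = 0.00207), by limma's test of the difference itself. The Ets2 value rests on MUT blastocysts without reads, so its size depends on the pseudocount.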

How the results depend on the processing

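The 11 called values of the 10 genes kept their sign in all 140 alternatives computed for them and lost their call in 43. Of the other 149 values, 20 of 2140 alternatives passed the test and 147 had the other sign, none of them called. Tfap2a and Tead4 in outgrowths and Id2 at E6.5 kept their calls throughout. Without a filter, calls among the 10 numbered 2 in Taf12 MUT outgrowths, 0 in Taf13 MUT blastocysts and 2 at E6.5. Voom called 0 in Taf13 MUT blastocysts. With WT and HET together as control, 7 passed in outgrowths. Leaving out 1 library gave 2 to 4 calls in outgrowths, 0 in Taf13 MUT blastocysts, 2 to 4 in Taf13 MUT at E6.5, 0 to 2 for the Taf12 MUT contrast of outgrowths with blastocysts and 2 to 4 for the Taf13 MUT contrast of E6.5 with E3.5. Cdx2 in outgrowths lost its call with the 0.1 pseudocount (adjusted p = 0.055), without a filter (0.0851) and by voom (0.0887). The causes were not tested.

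Over all genes, no filter gave 4 calls in Taf5 MUT, 67 in Taf12 MUT and 8 in Taf13 MUT blastocysts, and 2 in Taf13 HET at E6.5. Voom gave 0, 1 and 0 in Taf5 MUT, Taf13 MUT blastocysts and Taf12 HET outgrowths. WT and HET together gave 441 in Taf12 MUT and 30 in Taf13 MUT blastocysts and 3348 at E6.5. Leaving out 1 library gave 3 to 7 in Taf5 MUT, 77 to 220 in Taf12 MUT, 0 to 1 in Taf12 HET, 6 to 23 in Taf13 MUT and 0 to 2 in Taf13 HET blastocysts, 0 to 2 in Taf12 HET outgrowths and 404 to 1987 in Taf13 MUT at E6.5.

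The labels do not say whether replicate numbers pair the embryos. Correlations of same-numbered deviations ran from −0.436 to 0.383. Differently numbered embryos were not correlated for comparison, so these values cannot decide whether the numbers pair embryos. With a replicate block, calls among the 10 were 0 in Taf13 MUT blastocysts and 1 at E6.5, and calls over all genes were 0 in Taf5 MUT, 48 in Taf12 MUT and 0 in Taf13 MUT blastocysts, 0 in Taf12 HET outgrowths and 584 in Taf13 MUT at E6.5.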
